A study of Mus musculus with 7 samples.

Results

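Long noncoding RNAs are transcripts of 200 bases or more that are not annotated as protein-coding. The set described here holds the 113 autosomal genes of this kind that were expressed in RNA-seq libraries of sorted mouse spleen cells. The members were selected on annotation and level: the deposited table gives them the biotype lincRNA, antisense or processed_transcript, a length of at least 200 bases, a place on chromosomes 1 to 19 and a mean level, taken over all 7 libraries, of 5 FPKM or more. FPKM counts fragments relative to the length of the gene and the size of the library. The rule also admitted the biotype lncRNA, which none of the members carried. The members are 113 of the 54532 genes of the table, and 8389 autosomal genes of the same biotypes and length were listed at any level.

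The cells came from the spleens of IL-17GFP/+ mice, in which green fluorescent protein reports the Il17a locus, and were sorted for that fluorescence; all 7 libraries share this reporter genotype. The 4 health libraries, numbered 1 to 4, came from mice without ligature. The 3 periodontitis libraries, numbered 2 to 4, came from mice whose lower first molars had been tied on both sides with 5-0 silk thread, a model of gum inflammation with bone loss. The labels call the cells Th17 and do not say whether a library came from 1 mouse or from pooled mice, so the p-values speak of library spread, which may be technical. The labels give neither the age of the mice nor the time after ligature.

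Long noncoding RNAs act in several ways. Some hold nuclear bodies together, some carry small nucleolar RNAs or microRNAs in their introns or exons, and some are read from the opposite strand or from the shared promoter of a protein-coding gene. Many are cell type specific, and in T cells and macrophages a number of them lie beside genes that mark those cells.

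The health libraries held 14161438 to 17891393 recovered reads each and those of periodontitis 13513806 to 16717942. Xist stood at 52.1 to 72.5 FPKM in health and at 0.135 to 1.35 FPKM in periodontitis, while the Y-linked gene Eif2s3y was at 0 in health and at 14.3 to 20.4 FPKM in periodontitis. Sex and periodontitis cannot be told apart for any member. The groups are those of the labels, and whether any sample was exchanged was not tested, which bears on every comparison of health with periodontitis. Il17a, the cytokine gene behind the sort, had 3.76, 0, 1.13 and 0 FPKM in the health libraries, in the order of their numbers, and 362, 269 and 136 FPKM in those of periodontitis. Il17a was thus high in the periodontitis libraries and nearly missing in the health libraries. Its level alone does not tell the Th17 cells of the label from gamma-delta T cells, whose markers are given below. All 10 T cell markers examined were higher in periodontitis, with a summed level of 216 to 478 FPKM in health and 1421 to 3268 FPKM in periodontitis, and all 5 gamma-delta T cell markers were higher too, with 11.1 to 31.6 against 529 to 698 FPKM. All 12 macrophage markers were lower, with 5113 to 14185 FPKM in health and 396 to 926 FPKM in periodontitis. Of 8 neutrophil markers 2 were lower, of 6 erythroid markers 2 were higher, and of 7 B cell and 5 plasma cell markers 1 each was higher. None of 5 NK cell markers passed and 1 of 4 tested dendritic cell markers was lower; no marker of any list was at 0 throughout a group. In bulk samples, fewer cells of a type and less RNA per cell cannot be told apart. The part that these shifts in cell types play in the members' changes was not tested.

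The 113 members comprised 51 lincRNA, 33 processed_transcript and 29 antisense genes and were spread over all 19 autosomes, with 15 on chromosome 11 and 11 on chromosome 7. Their lengths ran from 256 to 20771 bases with a median of 1360. The members were mostly weakly expressed: the median of their mean levels was 8.58 FPKM, 62 lay under 10 FPKM, 8 reached 50 FPKM and 6 reached 100 FPKM. Clone or predicted names, such as Gm numbers and Rik names, belonged to 83 of them. Some symbols are those of proteins, such as Ifi30, Cct6a and Prr33, although the table gives these genes a noncoding biotype. Just inside the limit of 5 FPKM lay Gm11454 with a mean of 5.05, 5033430I15Rik with 5.10 and Gm47242 with 5.14 FPKM; just outside lay Gm30211 with 4.97, E230029C05Rik with 4.95 and 2010320M18Rik with 4.92 FPKM.

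A mean over both groups admits genes through 1 group alone. Both group means reached 5 FPKM for 72 members, only the health mean did for 21 and only the periodontitis mean did for 20. A read was present in every library for 89 members. Periodontitis 4 had 21 members at 0, and for 15 of these it was the only library at 0. Their median level in the other 6 libraries would have been worth 28.1 to 182 reads there. That library had the fewest genes with a read over the whole table: 12226, beside 15322 and 17546 in periodontitis 2 and 3 and 16852 to 19721 in health. For autosomal genes of the members' biotypes and length at any level, the counts were 397, beside 954, 1516 and 1320 to 2064. The zeros of periodontitis 4 are thus not particular to the members. Periodontitis 2 was the library with the highest value for 39 members, more than any other library. How many of all genes were highest in periodontitis 2 was not examined. Its FPKM total was the highest of all, at 568848, beside 475268 and 526989 in periodontitis 3 and 4 and 375857 to 379328 in health. Features under 200 bases held 1.40% of the total in periodontitis 2, beside 36.7% and 24.2% in periodontitis 3 and 4 and 3.31% to 9.63% in health.

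Reads may be shared with other genes. The strand setting of the counting is not stated, so a member and a gene on the opposite strand cannot be told apart over shared exon bases. Of the 112 members found in GENCODE M21, 50 shared exon bases with another gene and 35 did so with a gene on the opposite strand, but only 4 shared over 50% of their exon bases. By sequence, 33 members shared over 10% of their 50-base words with transcripts of other genes, on either strand, and 8 shared over 50%.

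Periodontitis against health was fitted with limma on log2(FPKM + 1) over the 12999 genes whose mean reached 1 FPKM. With Benjamini-Hochberg adjustment over all of them and a threshold of 0.05, 16 members were higher in periodontitis, 12 were lower and 85 did not pass. These 28 calls are 24.8% of the members, beside 15.8% of all tested genes called in either direction, 18.6% of those at 5 FPKM or more and 18.9% of protein-coding genes at that level. Of all tested genes 5.63% were higher and 10.2% were lower; of the members 14.2% were higher and 10.6% were lower. The median log2 change was 0.08 over the members and -0.06 over all tested genes. An unadjusted p under 0.05 was reached by 43 members. The 4 health values and the 3 periodontitis values did not overlap for 34 members, or 30.1%, beside 29.8% of all tested genes.

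The group that carried a member over the limit also fixed much of its direction. Of the 21 members carried by health 10 were lower and 11 did not pass, and of the 20 carried by periodontitis 9 were higher and 11 did not pass. Of the 72 members at 5 FPKM or more in both groups 7 were higher, 2 were lower and 63 did not pass. The calls also depend on the scaling of the libraries: with each library rescaled to the same FPKM total, which lowered the median change of all tested genes to -0.44, 11 members were higher and 21 were lower. The share of higher calls among the members' calls was then 34.4%, against 57.1% on the deposited scale.

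**Figure D1:**
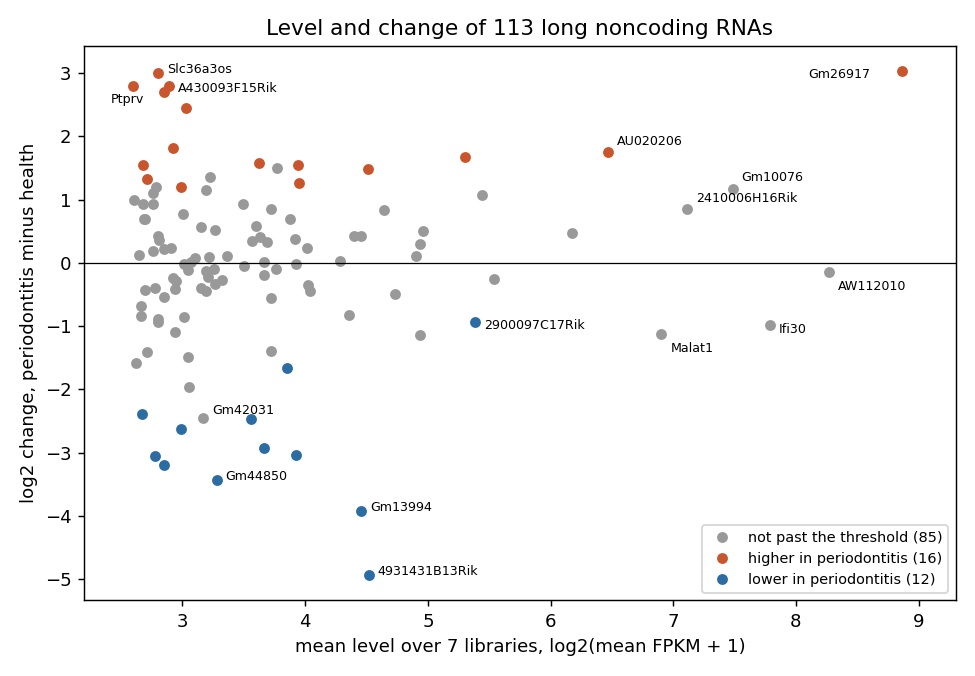
Log2 change (periodontitis minus health, vertical axis) against the log2 of the mean FPKM over 7 libraries plus 1 (horizontal axis) for the 113 members; colours mark the 16 higher, the 12 lower and the 85 members that did not pass. Changes are those of the main fit, with 1 FPKM added to every value. Among them Gm26917 joins the highest level to the largest rise of 3.03, and the largest fall is that of 4931431B13Rik at -4.94. Slc36a3os and Gm11454 rose more than Gm26917 by the ratio of group means.

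For the 4 members with the largest falls on the log2(FPKM + 1) scale, the nearest protein-coding gene fell as well. Gm32098, described below, had no read in periodontitis, so its rank among the falls is not known. The largest fall was that of 4931431B13Rik, a processed_transcript gene at chr7:128192050-128203328 on the minus strand (mm10), inside Itgad. Itgad encodes integrin alpha D, a leukocyte integrin known from splenic red pulp macrophages. 4931431B13Rik stood at 70.1, 32.6, 33.7 and 16.5 FPKM in health and at 0, 0.455 and 0 FPKM in periodontitis. Every health library was far above every periodontitis library. The log2 change was -4.94 (SE 0.43, adjusted p = 0.00055). Gm44850, another gene on the opposite strand of Itgad at chr7:128215616-128220788, stood at 20.9, 15.8, 18.9 and 4.15 FPKM in health and at 0, 1.12 and 0 FPKM in periodontitis, again without overlap, with a log2 change of -3.44 (SE 0.53, adjusted p = 0.00371). Itgad itself fell from 155 to 488 FPKM in health to 7.03 to 13.7 FPKM in periodontitis, a log2 change of -4.43 (adjusted p = 0.000674). Both RNAs thus lay far below their host in level, and all 3 genes fell by more than 3 on the log2 scale. Of the exon bases of 4931431B13Rik 27.0% are also exon bases of Itgad, whereas Gm44850 shares none.

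Adap2os lies on the strand opposite Adap2, a GTPase-activating protein for Arf GTPases, at chr11:80158861-80177629. It shares 14.8% of its exon bases with exons on that strand. It stood at 18.4, 8.45, 9.61 and 6.30 FPKM in health and at 0, 0.665 and 0 FPKM in periodontitis. The groups were wide apart, and the log2 change was -3.20 (SE 0.37, adjusted p = 0.00118). Adap2 itself was at 36.6 to 86.8 FPKM in health and at 0, 3.47 and 0 FPKM in periodontitis 2, 3 and 4, with a log2 change of -4.90 (adjusted p = 0.00109), so that the library with a trace of one had a trace of the other.

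Gm13994, a lincRNA gene at chr2:124708655-124711083, is the most abundant of the large fallers after 4931431B13Rik. It stood at 52.7, 27.8, 22.4 and 38.8 FPKM in health and at 2.23, 2.67 and 0 FPKM in periodontitis. All health values lay far above all periodontitis values, and the log2 change was -3.93 (SE 0.48, adjusted p = 0.00142). Sema6d, a transmembrane semaphorin gene 40884 bases away on the same strand, fell alongside by -4.16 on the log2 scale (adjusted p = 0.000727).

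Further members fell with a neighbour. 4930455G09Rik, at 12.4, 13, 15.5 and 4.43 FPKM in health and at 1.07, 2.08 and 0 FPKM in periodontitis, changed by -2.62 (SE 0.49, adjusted p = 0.00828). Tmem51, a membrane protein gene 1995 bases from it, changed by -3.42 (adjusted p = 0.002). Gm36551 overlaps the start of Pilrb1, which encodes an activating immunoglobulin-like receptor of myeloid cells, on the opposite strand. It stood at 17.1, 19.4, 15.6 and 13.4 FPKM in health and at 7.85, 2.38 and 0 FPKM in periodontitis, a log2 change of -2.47 (SE 0.62, adjusted p = 0.0289), and Pilrb1 changed by -3.03 (adjusted p = 0.0013). Periodontitis 2 kept the most Gm36551, and 32.3% of its exon bases lie in other genes' exons.

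Gm32098, a lincRNA gene on chromosome 8, had 319 reads over the health libraries and none in periodontitis. Its levels of 22.8, 2.11, 12.2 and 3.98 FPKM in health varied widely. Against the floor of 3 reads over the periodontitis libraries it was at least 75.2-fold lower there, or at least 44.7-fold lower without health 1, and the fitted log2 change was -3.06 (adjusted p = 0.0145), which is no bound. The call was lost without health 3 (adjusted p = 0.051) and with library weights (0.0678). Gm13710 likewise varied in health, at 36.5, 2.65, 19.3 and 19.6 FPKM, with 2.86, 1.17 and 0 FPKM in periodontitis. Health 2 fell within the periodontitis range, and Gm13710 was the only called member whose groups overlapped. The log2 change was -2.93 (SE 0.77, adjusted p = 0.036). This call was lost in 10 of 18 alternative settings, with adjusted p-values of up to 0.169.

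Gm15523 fell beside a gene that did not pass the threshold. It is read from the strand opposite Asb2, a subunit of ubiquitin ligases made in blood cells, at chr12:103336906-103348057, and shares no exon base with it. It stood at 34.2, 24.6, 16.4 and 16.9 FPKM in health and at 2.91, 4.61 and 0 FPKM in periodontitis, without overlap (log2 change -3.04, SE 0.56, adjusted p = 0.008). Asb2 stood at 203, 82.8, 125 and 76.1 FPKM in health and at 118, 104 and 33.0 FPKM in periodontitis (log2 change -0.59, adjusted p = 0.462). Gm12972 stood at 11.3, 4.84, 11.5 and 7.18 FPKM in health and at 1.07, 1.66 and 0 FPKM in periodontitis (log2 change -2.39, SE 0.41, adjusted p = 0.00586), and its groups did not overlap.

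The 2 fallers with at least 5 FPKM in both groups were milder. 2900097C17Rik, which RefSeq names Norad, is a cytoplasmic RNA known for a part in keeping the genome stable. It stood at 66.9, 43.4, 47.7 and 48.5 FPKM in health and at 20.7, 31.9 and 27.1 FPKM in periodontitis. All health values lay above all periodontitis values, and the log2 change was -0.93 (SE 0.24, adjusted p = 0.0298). This call was lost when health 1, 2, 3 or 4 or periodontitis 2 or 4 was left out, with adjusted p-values from 0.0546 to 0.0674 and with library weights (0.0817), and 39.5% of its 50-base words also occur in Gm7292. Gm36161 stood at 21.8, 19.5, 22.5 and 13.1 FPKM in health and at 4.50, 3.39 and 9.11 FPKM in periodontitis (log2 change -1.67, SE 0.32, adjusted p = 0.0101). Its groups did not overlap, but 68.9% of its words occur in other transcripts, so its reads may be those of copies. Of the 12 members that fell, the other 10 were at 0 in periodontitis 4, the library with the fewest genes read. Without that library 10 members were lower.

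**Figure D2:**
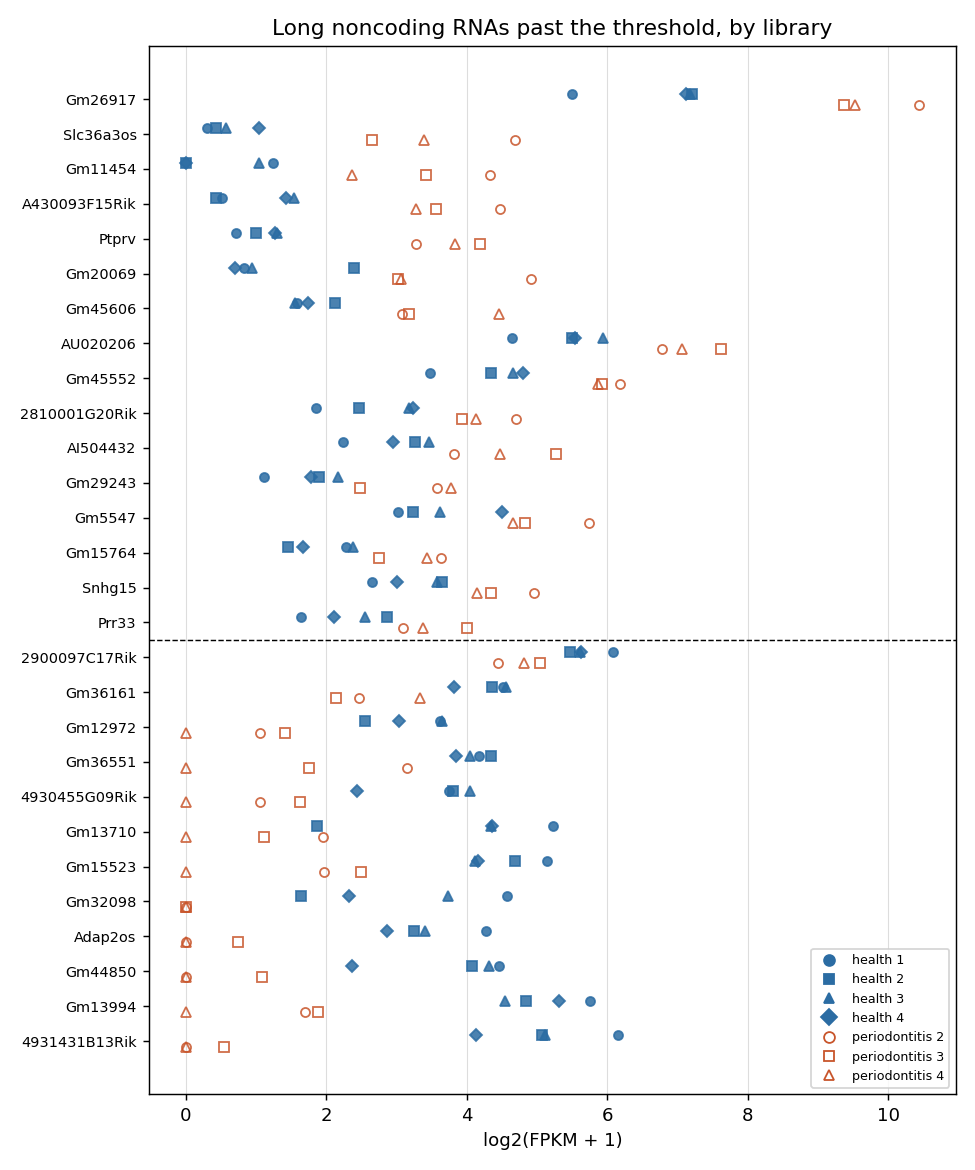
Level of each of the 28 called members in each library, as log2(FPKM + 1) on the horizontal axis; filled blue symbols are health and open orange symbols periodontitis, and the dashed line parts the 16 higher (above) from the 12 lower (below). The groups overlap for Gm13710 alone among these members, and Gm32098 is at 0 in all 3 periodontitis libraries.

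The members that rose ranged from RNAs nearly missing in health to abundant ones. Slc36a3os is antisense to Slc36a3, an amino acid transporter gene, at chr11:55137044-55140193 on the plus strand. It stood at 0.232, 0.343, 0.485 and 1.05 FPKM in health and at 24.9, 5.26 and 9.49 FPKM in periodontitis. The groups lay far apart, and the log2 change was 2.99 (SE 0.46, adjusted p = 0.00371). Slc36a3 itself stood at 0 to 0.831 FPKM in health and at 2, 0 and 0 FPKM in periodontitis, too low to be tested. Gm11454, a lincRNA gene on chromosome 2, was at 1.35, 0, 1.06 and 0 FPKM in health and at 19.1, 9.66 and 4.15 FPKM in periodontitis (log2 change 2.80, SE 0.52, adjusted p = 0.00854). In both RNAs periodontitis 2 was the highest library.

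A430093F15Rik, a processed_transcript gene at chr19:10740947-10786043 on the plus strand, lies 1972 bases from Cd5 on the other strand. Cd5 encodes a surface receptor of T cells that dampens antigen receptor signals. A430093F15Rik stood at 0.425, 0.343, 1.90 and 1.68 FPKM in health and at 21.1, 10.8 and 8.68 FPKM in periodontitis. The groups were far apart and the log2 change was 2.79 (SE 0.40, adjusted p = 0.0028). Cd5 stood at 16.6, 26.9, 38.2 and 29.2 FPKM in health and at 279.5, 255 and 116 FPKM in periodontitis, a log2 change of 2.88 (adjusted p = 0.00198). The order of the libraries was alike in periodontitis, with library 2 highest and library 4 lowest for both, and the ratio of the RNA to Cd5 differed by only -0.09 on the log2 scale between groups. Cd5 is itself one of the T cell markers given above.

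Ptprv carries the symbol of a receptor-type tyrosine phosphatase and lies head to head with Ptpn7, a phosphatase of blood cells that acts on MAP kinases, with 105 bases between them on chromosome 1. It stood at 0.647, 0.995, 1.46 and 1.40 FPKM in health and at 8.71, 17.2 and 13.2 FPKM in periodontitis. The spread within each group was small beside the gap between them, and the log2 change was 2.69 (SE 0.29, adjusted p = 0.00095). Ptpn7 rose as well, from 12.7 to 18 FPKM in health to 28.8 to 53.3 FPKM in periodontitis (log2 change 1.26, adjusted p = 0.0105). 2810001G20Rik lies head to head with Cox10, an enzyme of haem A synthesis for the respiratory chain, with 15 bases between the genes on chromosome 11. It stood at 2.62, 4.50, 8.05 and 8.38 FPKM in health and at 24.9, 14.2 and 16.5 FPKM in periodontitis (log2 change 1.57, SE 0.37, adjusted p = 0.0232), and Cox10 changed by 1.31 (adjusted p = 0.011). Both genes of this pair were higher in each periodontitis library than in any health library.

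Gm20069, antisense to the inositol phosphate kinase gene Itpk1, stood at 0.774, 4.25, 0.926 and 0.625 FPKM in health and at 29.0, 7.09 and 7.38 FPKM in periodontitis (log2 change 2.45, SE 0.57, adjusted p = 0.022). Health 2 was high within its group and periodontitis 2 within the other. Itpk1 changed by 0.20 (adjusted p = 0.561) and shares no exon base with it. Gm45606, antisense to the amino acid transporter gene Slc43a2, stood at 1.98, 3.36, 1.94 and 2.34 FPKM in health and at 7.39, 8.02 and 21 FPKM in periodontitis (log2 change 1.82, SE 0.36, adjusted p = 0.011). Slc43a2 changed by -1.24 (adjusted p = 0.058), the opposite sign, although 30.2% of the words of Gm45606 occur in it on the other strand.

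AU020206 was the second most abundant riser, a lincRNA gene at chr7:75769038-75782099 on the minus strand. It stood at 24.0, 44.3, 60.1 and 45.7 FPKM in health and at 109, 195 and 133 FPKM in periodontitis. The groups lay apart, and the log2 change was 1.75 (SE 0.34, adjusted p = 0.0104); Akap13, the nearest protein-coding gene, changed by -0.27 (adjusted p = 0.578). Gm45552 stood at 10.1, 19.4, 24.3 and 26.7 FPKM in health and at 71.3, 59.9 and 57.2 FPKM in periodontitis, an even rise by 1.67 on the log2 scale (SE 0.32, adjusted p = 0.00987). The lowest periodontitis value was above the highest health value. Of the exon bases of Gm45552, 20.3% lie in exons of other genes. The largest share is with a gene on the opposite strand with a mean of 1084 FPKM. Since strand use is not stated, some reads of Gm45552 may be those of that gene, which was not tested.

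AI504432 lies 1433 bases from Kcna3, the gene of the potassium channel Kv1.3 of T cells, on the same strand. It stood at 3.72, 8.54, 10.04 and 6.72 FPKM in health and at 13, 37.6 and 21.2 FPKM in periodontitis (log2 change 1.54, SE 0.40, adjusted p = 0.0337). Kcna3 had the same order in periodontitis, with 9.02, 58.4 and 24.0 FPKM, beside 6.77 to 14.3 FPKM in health, and did not pass (log2 change 1.24, adjusted p = 0.164). The other members that rose were Gm29243 by 1.54, Gm5547 by 1.48, Gm15764 by 1.32, the small nucleolar RNA host Snhg15 by 1.27 and Prr33 by 1.20 on the log2 scale, with adjusted p-values from 0.0271 to 0.0499. Prr33, at 0.0499, was the weakest call of all and was lost in 16 of 18 alternative settings.

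The calls were not equally firm. Over 18 alternative settings, among them each library left out in turn and not counting a block for the replicate number, 15 of the 28 called members passed every time (Gm26917 in 17, since 1 setting removes it), 8 of them higher and 7 lower, and no called member changed sign. The 8 were Gm26917, Slc36a3os, Gm11454, A430093F15Rik, Ptprv, Gm45606, AU020206 and Gm45552. The 7 were 4931431B13Rik, Gm13994, Gm44850, Adap2os, Gm15523, Gm12972 and Gm36161. The other 13 called members lost the call in some setting. It was lost in 10 of 18 for AI504432, Gm5547 and Gm13710 and in 8 for Gm36551, Gm15764 and Gm29243. For Gm20069 it was lost in 7, for 2810001G20Rik in 5 and for 4930455G09Rik in 1. With a block for the number in the library names, Gm36161 (adjusted p = 0.0829) and Gm45606 (0.0603) lost the call. With a block for the number in the sample titles, Gm45606 (0.0733) and Gm12972 (0.0565) lost it. Leaving out 1 library took the count of higher members from 16 to as few as 9, without periodontitis 2, and that of lower members from 12 to as few as 8, without health 3; without health 1, 2 or 4 there were 10 higher members in each case.

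Members and their nearest protein-coding genes were compared for all 113, of which 91 had a neighbour that could be tested. Of the neighbours of all members 39 overlapped their member on the opposite strand, 8 overlapped on the same strand, 9 were head to head within 1000 bases and 57 were apart. Among 24 called members with a tested neighbour, the neighbour had passed in the same direction for 12, in the opposite direction for 0 and had not passed for 12. Among 67 members that did not pass, 8 neighbours were called. By direction, of the 12 fallers 8 had a lower neighbour, 3 had one that did not pass and 1 had one that was not tested. Of the 16 risers 4 had a higher neighbour, 9 had one that did not pass and 3 had one that was not tested. Over all tested genes 15.8% were called, 10.2% lower and 5.63% higher. Across the 91 pairs the log2 changes correlated with Pearson's r = 0.69 and Spearman's rho = 0.49; pairs share libraries, and some share exon bases or a neighbour, so this is a description.

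The ratio of member to neighbour was compared by an exact two-sided permutation test over all 35 ways to assign 4 and 3 libraries, which cannot give a p below 0.0571. For 16 of the 91 pairs, or 17.6%, the ratios of the groups did not overlap. The levels of single genes did not overlap for 29.8% of all tested genes, and the share for pairs of other genes was not examined. The lowest adjusted p was 0.325. Since no pair could have passed with this number of libraries, the test does not decide whether any ratio differed. Of the 91 ratios that of Gm13012 to Ece1, an endothelin-converting enzyme gene on the other strand, rose most, by 3.15 on the log2 scale; Gm13012 was named after its values were seen. Gm13012 stood at 2.86, 7.5, 7.38 and 10.7 FPKM in health and at 19, 6.89 and 17.7 FPKM in periodontitis (log2 change 0.93, adjusted p = 0.204), while Ece1 was lower (log2 change -2.22, adjusted p = 0.0173). The ratio of Gm45606 to its neighbour rose by 3.06, and Gm15523 had the ratio that fell most, by -2.45. Zfas1 and Gas5, hosts of small nucleolar RNAs that start beside Znfx1 and Zbtb37 on the other strand, were also among the 16, with ratios higher by 1.19 and 1.33. Snhg8 had a neighbour called where it was not: Prss12, a serine protease gene 954 bases away, stood at 0.183 to 1.05 FPKM in health and at 5.60 to 10.6 FPKM in periodontitis (log2 change 2.39, adjusted p = 0.00217).

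**Figure D3:**
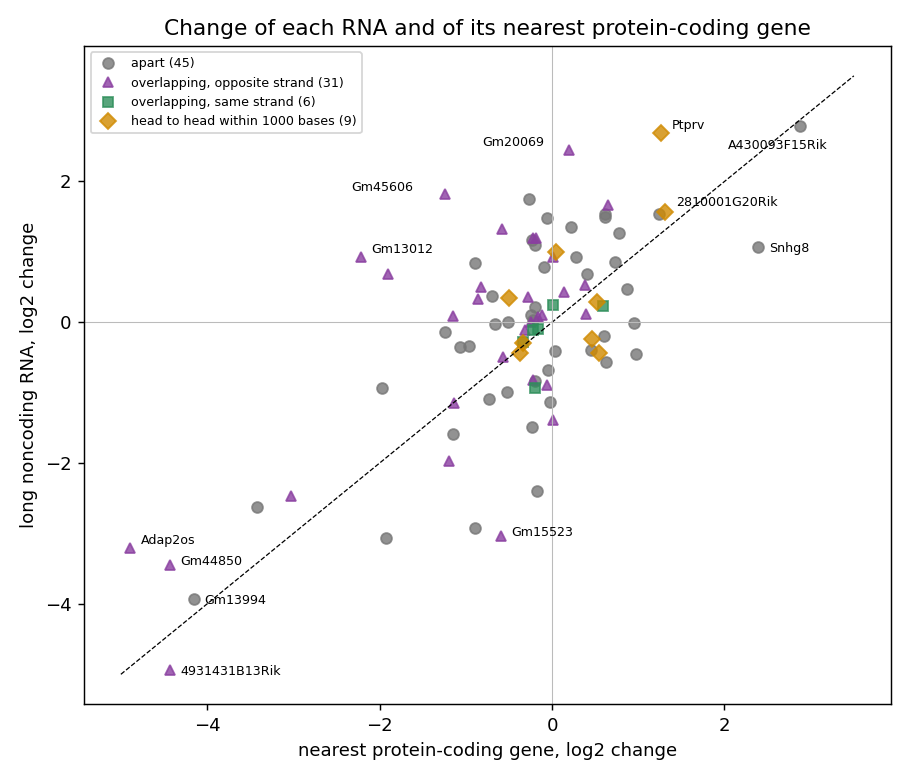
Log2 change of each member (vertical axis) against that of its nearest protein-coding gene (horizontal axis) for the 91 pairs with a tested neighbour; symbols give the arrangement and the dashed line marks equal change. The fallers 4931431B13Rik, Gm44850, Gm13994 and Adap2os lie low with their neighbours, A430093F15Rik and Cd5 lie on the line, and Gm15523 lies below a neighbour near 0.

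Promoter sequences were available from RefSeq (GRCm38.p6) for 61 members, and for 39 of them the RefSeq start lay within 50 bases of the deposited one. Each runs from 250 bases before to 50 bases after the start, 5′ to 3′ on the strand of the RNA. Of the 39, 8 belonged to members that rose and 2 to members that fell. These 4 are shown because they stand for the arrangements above: a pair with a shared start region (2810001G20Rik and Cox10), a riser beside a rising gene (A430093F15Rik), a riser within a nearly silent gene (Slc36a3os) and a faller whose host did not pass (Gm15523). They lie at chr11:64079234-64079533 on the plus strand, chr19:10740697-10740996 on the plus strand, chr11:55136749-55137048 on the plus strand and chr12:103336623-103336922 on the plus strand. Capitals mark matches, on either strand, to GGAAGT, the core of ETS factor sites, and to GGGCGG, the GC box.
2810001G20Rik: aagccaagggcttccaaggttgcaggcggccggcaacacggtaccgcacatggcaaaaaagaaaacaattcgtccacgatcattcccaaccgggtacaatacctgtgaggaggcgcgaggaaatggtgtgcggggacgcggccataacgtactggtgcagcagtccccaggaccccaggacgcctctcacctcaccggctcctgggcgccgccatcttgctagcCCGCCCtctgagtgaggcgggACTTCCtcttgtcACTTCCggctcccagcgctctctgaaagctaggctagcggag
A430093F15Rik: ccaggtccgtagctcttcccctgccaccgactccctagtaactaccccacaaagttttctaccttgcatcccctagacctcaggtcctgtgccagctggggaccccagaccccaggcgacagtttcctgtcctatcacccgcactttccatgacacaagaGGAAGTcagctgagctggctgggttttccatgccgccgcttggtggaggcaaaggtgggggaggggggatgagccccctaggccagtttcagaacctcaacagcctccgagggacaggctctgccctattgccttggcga
Slc36a3os: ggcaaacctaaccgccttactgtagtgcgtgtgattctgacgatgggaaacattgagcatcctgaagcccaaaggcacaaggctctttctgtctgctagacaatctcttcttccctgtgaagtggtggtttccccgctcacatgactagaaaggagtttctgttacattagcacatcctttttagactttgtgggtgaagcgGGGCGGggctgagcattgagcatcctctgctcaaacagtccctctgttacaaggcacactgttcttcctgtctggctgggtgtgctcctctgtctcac
Gm15523: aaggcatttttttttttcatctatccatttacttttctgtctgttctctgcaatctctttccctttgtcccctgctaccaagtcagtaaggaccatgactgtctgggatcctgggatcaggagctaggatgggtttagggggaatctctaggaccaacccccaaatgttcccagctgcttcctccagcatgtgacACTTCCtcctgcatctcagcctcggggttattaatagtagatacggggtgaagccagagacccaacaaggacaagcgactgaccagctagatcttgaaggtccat

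The 2810001G20Rik window holds GGAAGT at 2 places beside the start and a GC box before it, and the Cox10 start lies 16 bases from that of the RNA. Motifs were searched on both strands, and matches may overlap. GGAAGT, the core of an ETS factor site, was found in 15 of the 39 member promoters, or 38.5%, beside 23.8% of all 32851 RefSeq promoters of the same length. The GC box (GGGCGG) was found in 41.0% of them beside 35.7% of all. The CCAAT box was found in 25.6% beside 37.4%, the TATA box (TATAAA) in 15.4% beside 13.6% and the RUNX core (TGTGGT) in 15.4% beside 16.8%. The AP-1 site TGACTCA, whose other strand was searched too, was in none of the 39 and in 5.2% of all promoters, and the NF-kB site was in none of the 39 and in 0.244% of all. Among the 8 promoters of members that rose, the ETS core was in 3, the GC box in 4 and the TATA box in none. A match is a run of letters and does not show binding.

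The 6 members at 100 FPKM or more were Gm26917, AW112010, Ifi30, Gm10076, 2410006H16Rik and Malat1. Gm26917, a lincRNA gene at chr17:39843013-39846341 on the plus strand, had the highest level of all members. Its rise was the largest in the main fit, where 1 FPKM was added to every value. By the ratio of group means Gm26917 rose 7.86-fold, less than Slc36a3os (25.1-fold), Gm11454 (18.2-fold), A430093F15Rik (12.4-fold), Ptprv (11.6-fold) and Gm20069 (8.82-fold). Gm26917 stood at 44.3, 146.6, 143 and 138 FPKM in health and at 1384, 663 and 737 FPKM in periodontitis. Health 1 was low, periodontitis 2 was high, and the groups did not overlap (log2 change 3.03, SE 0.49, adjusted p = 0.00426). The gene lies 11 bases from CT010467.1, which the table annotates as ribosomal RNA. CT010467.1 stood at 271, 881, 648 and 282 FPKM in health and at 46.6, 1009.8 and 1995 FPKM in periodontitis, with a log2 change of -0.00091 (adjusted p = 0.9999). The health libraries had the same order for both genes, with health 2 highest and health 1 lowest, while periodontitis 2 was the highest library of all for Gm26917 and the lowest for CT010467.1. Whether the entries share a source of reads was not tested. The noncoding genes Gm42418 and AY036118 of the same stretch were listed at 0 in every library.

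The share of reads that fell on the members differed between the groups with Gm26917 counted and overlapped without it. That share was 0.450% to 0.581% in health and 0.843%, 0.782% and 0.720% in periodontitis 2, 3 and 4. Without Gm26917 it was 0.429% to 0.531% in health and 0.434%, 0.534% and 0.462% in periodontitis, so that the groups overlapped, with periodontitis 3 just above the highest health library. Gm26917 itself took 0.0137% to 0.0507% of the reads in health and 0.248% to 0.409% in periodontitis.

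AW112010, an interferon-inducible transcript known from activated T cells and macrophages, stood at 389.8, 235, 321 and 217 FPKM in health and at 660.04, 198 and 128 FPKM in periodontitis. Periodontitis 2 was above and the other periodontitis libraries were below all health libraries, and the log2 change was -0.14 (95% interval -1.36 to 1.08, adjusted p = 0.881). Ifi30, the symbol of a lysosomal thiol reductase of antigen-presenting cells, stood at 429, 202, 258 and 225 FPKM in health and at 209, 85.4 and 133 FPKM in periodontitis (log2 change -0.99, SE 0.38, adjusted p = 0.121). It missed the threshold here and passed it with voom on the recovered reads (adjusted p = 0.0469) and in 4 alternatives that rescaled the libraries, with adjusted p-values down to 0.0142. Gm10076 stood at 71.1, 32.9, 53.7 and 307 FPKM in health and at 96.4, 103 and 583 FPKM in periodontitis (log2 change 1.17, SE 0.85, adjusted p = 0.385). In each group the library numbered 4 was several times above the others. RefSeq lists Gm10076 as a pseudogene, and 69.9% of its 50-base words occur in transcripts of other genes, mostly Rpl41; Rpl41 was the lowest of its group in those 2 libraries, at 385 and 206 FPKM.

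**Figure D4:**
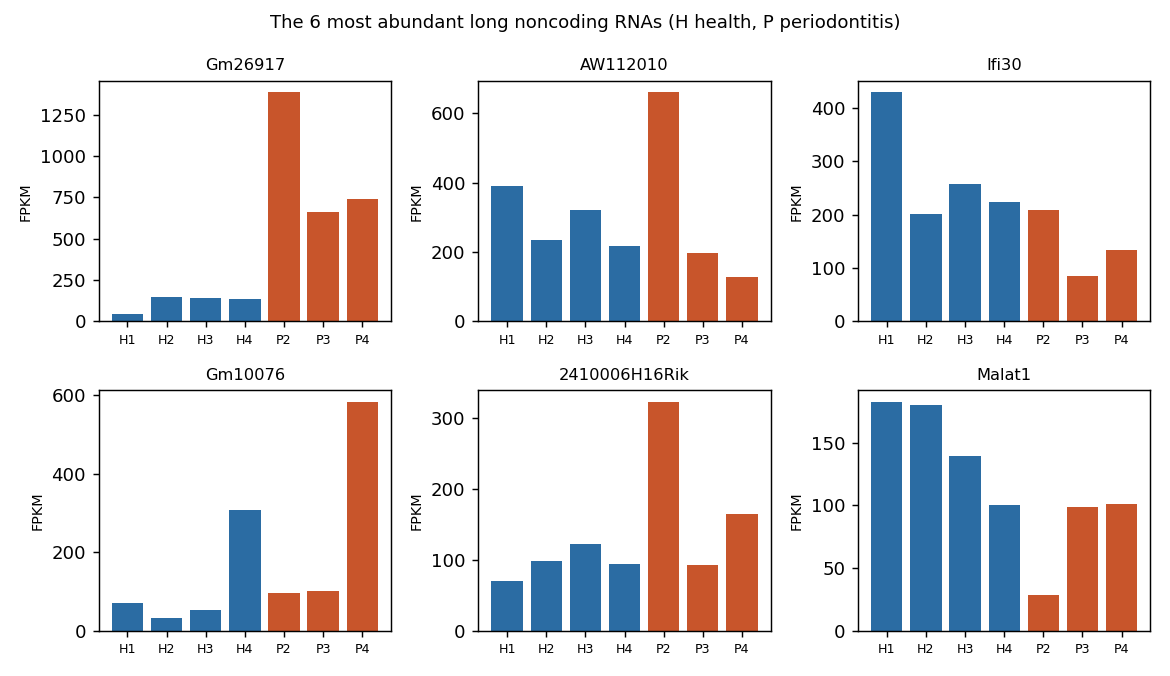
Level in FPKM (vertical axes, from 0) of the 6 most abundant members in each library; blue bars are health 1 to 4 and orange bars periodontitis 2 to 4. Gm26917 is high in all 3 periodontitis libraries, Gm10076 in both libraries numbered 4, 2410006H16Rik in periodontitis 2, and Malat1 is lowest in periodontitis 2.

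Malat1 and Neat1, neighbours on chromosome 19, are the RNAs of nuclear speckles and of paraspeckles. Malat1 stood at 182, 179.7, 139.6 and 100.3 FPKM in health and at 29.0, 98.6 and 101 FPKM in periodontitis. The groups overlapped slightly, with periodontitis 2 well below the rest, and the change did not pass (log2 change -1.13, SE 0.46, adjusted p = 0.137); with each library rescaled to the same total it passed (adjusted p = 0.0418). Neat1, the longest member at 20771 bases, stood at 7.25, 12.0, 19.8 and 11.6 FPKM in health and at 9.94, 11.9 and 9.38 FPKM in periodontitis, within the health range throughout (log2 change -0.19, 95% interval -0.88 to 0.51, adjusted p = 0.712).

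Small nucleolar RNAs guide the modification of ribosomal RNA and are cut from the introns of host genes. Of the members 14 held at least 1 RNA annotated as snoRNA or scaRNA within their bounds on the same strand. The number ran from 1 in Snhg15 to 8 in Snhg1 and 10 in Gas5. The only such entry in Snhg20, Gm26083, is annotated as scaRNA, and Snhg20 was counted with the hosts of small nucleolar RNAs. Only Snhg15 passed, from 5.28, 11.5, 10.9 and 7.02 FPKM in health to 30.1, 19.3 and 16.8 FPKM in periodontitis (log2 change 1.27, SE 0.31, adjusted p = 0.0279), and none was lower. The Snhg15 call was lost in 8 of 18 alternative settings, with adjusted p-values of up to 0.0847, among them those without health 1, health 4, periodontitis 2 (0.0811) or periodontitis 3. The share called higher, 1 of 14, stands beside 5.63% of all tested genes. The median log2 change of the 14 was 0.34.

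Periodontitis 2 was the highest library for 11 of the 14, the others being Epb41l4aos, AI506816 and Snhg20. It also had the highest FPKM total of all libraries, 568848 beside 375857 to 379328 in health. The part of this total in the hosts' levels was not tested. Summed over the 14 hosts, the level ran from 261 to 389.7 FPKM among the health libraries and reached 794, 311 and 410.2 FPKM in periodontitis 2, 3 and 4. The most abundant host, 2410006H16Rik, which holds 3 small nucleolar RNAs, stood at 69.8, 98.1, 123 and 94.0 FPKM in health and at 322, 92.3 and 165 FPKM in periodontitis (log2 change 0.84, adjusted p = 0.208). Snhg8 stood at 23.9, 25.3, 34.8 and 20.6 FPKM in health and at 112, 28.9 and 51.2 FPKM in periodontitis (log2 change 1.07, adjusted p = 0.125). Periodontitis 2 stood at 1.95 times the next highest library for 2410006H16Rik and at 2.19 times for Snhg8, and periodontitis 3 lay within the health range for both. Gas5, known for accumulating in growth-arrested cells, stood at 18.9, 24.1, 32.3 and 25.4 FPKM in health and at 51.3, 28.4 and 30.8 FPKM in periodontitis (log2 change 0.51, adjusted p = 0.252). Over periodontitis 3 and 4 alone, the ratio of the mean to that of health ran from 0.574 for Snhg20 to 2.08 for Snhg15, and it was under 1 for 7 of the 14.

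The 74 genes of cytosolic ribosomal proteins had the same library order at the top: their summed level ran from 17344 to 26453 FPKM among the health libraries and reached 77629.5, 21603 and 29219 FPKM in periodontitis 2, 3 and 4. Whether a property of the library or of its cells raises both was not tested.

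**Figure D5:**
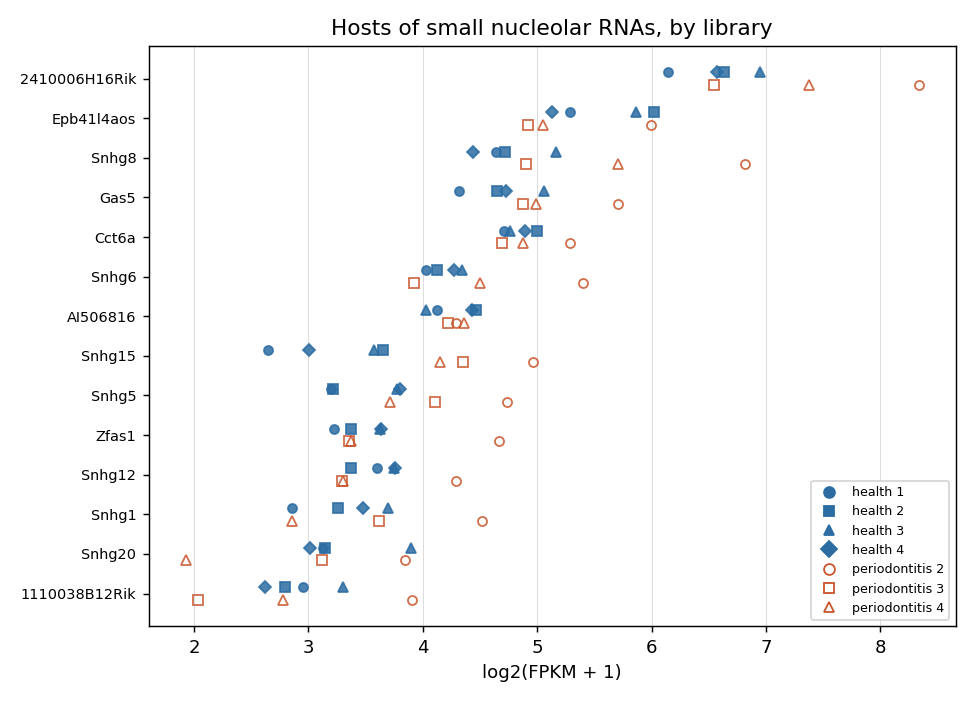
Level of the 14 hosts of small nucleolar RNAs in each library, with Snhg20 counted for a scaRNA, as log2(FPKM + 1) on the horizontal axis. Rows are ordered by mean level. Filled blue symbols are health and open orange symbols periodontitis. The open circle of periodontitis 2 is the rightmost symbol in 11 rows, while periodontitis 3 and 4 mostly lie among the health libraries.

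Many host genes of small nucleolar RNAs, like ribosomal protein genes, start within a run of C and T. The starts are shown for the 9 hosts whose RefSeq start lay within 100 bases of the deposited one, as 20 bases before and 20 bases from the start, 5′ to 3′ on the strand of the RNA (GRCm38.p6); capitals mark the first 8 transcribed bases.
2410006H16Rik: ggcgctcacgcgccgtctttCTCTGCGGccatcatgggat
Snhg8: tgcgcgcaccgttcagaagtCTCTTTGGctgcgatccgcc
AI506816: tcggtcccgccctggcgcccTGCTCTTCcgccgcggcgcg
Snhg15: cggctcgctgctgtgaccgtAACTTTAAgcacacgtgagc
Snhg5: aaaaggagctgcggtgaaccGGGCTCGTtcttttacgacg
Zfas1: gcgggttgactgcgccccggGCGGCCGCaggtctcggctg
Snhg12: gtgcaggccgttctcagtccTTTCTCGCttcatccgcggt
Snhg1: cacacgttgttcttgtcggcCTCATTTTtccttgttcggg
1110038B12Rik: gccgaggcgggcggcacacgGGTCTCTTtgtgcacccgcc
Of the 8 capital bases 7 or more were C or T in AI506816, Snhg12 and Snhg1, 3 of the 9 hosts, beside 5.65% of all RefSeq promoters. The median was 6 of 8 in the hosts and 4 of 8 over all promoters. Snhg15, the host that passed, had 4 of 8, so the called host is not among those with the most C and T. The unbroken run of C or T from the start was 0 bases in Snhg15. It was longest, at 6 bases, in Snhg8 and Snhg12.

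MicroRNA hosts were found among the members 3 times. None of the 5 tested hosts of this list passed, beside 15.8% of all tested genes. Nearest to the threshold was Mir17hg, outside the set with a mean of 2.23 FPKM. It stood at 0.540 to 2.12 FPKM in health and at 3.20 to 3.84 FPKM in periodontitis (log2 change 1.01, adjusted p = 0.0671). Mir142hg, the host of the blood cell microRNA miR-142a, stood at 24.4, 83.9, 77.6 and 60.5 FPKM in health and at 132, 55.7 and 64.5 FPKM in periodontitis, with the groups mixed (log2 change 0.48, 95% interval -0.60 to 1.55, adjusted p = 0.533). Mir22hg stood at 7.58, 7.62, 9.37 and 5.63 FPKM in health and at 6.89, 6.21 and 7.40 FPKM in periodontitis, close together in both groups (log2 change -0.11, 95% interval -0.60 to 0.38, adjusted p = 0.761). Snhg20 holds miR-6516 and stood at 7.74, 7.84, 13.9 and 7.07 FPKM in health and at 13.3, 7.68 and 2.80 FPKM in periodontitis (log2 change -0.33, adjusted p = 0.643). The libraries measure the host transcripts and not the mature microRNAs. The mature sequences within the hosts (RefSeq, GRCm38.p6, all on chromosome 11) are shown with their seed, bases 2 to 8, in capitals, because the seed defines the targets.
mmu-miR-142a-5p: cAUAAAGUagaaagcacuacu
mmu-miR-142a-3p: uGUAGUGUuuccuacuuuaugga
mmu-miR-22-5p: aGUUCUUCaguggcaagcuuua
mmu-miR-22-3p: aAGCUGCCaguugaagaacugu
mmu-miR-6516-5p: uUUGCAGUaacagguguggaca
mmu-miR-6516-3p: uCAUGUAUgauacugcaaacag
The 6 seeds all differ, so none of these microRNAs form a seed family with each other.

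Of 14 long noncoding RNAs reported in immune cells that the table lists, 8 were tested, none passed and 2 were members, Mir142hg and Mir22hg; over all tested genes 15.8% passed in either direction, 5.63% higher and 10.2% lower, so that counts this small are near the background. Of 6 with general cell functions 5 were tested, 1 was higher and 1 was lower, and 3 were members: Norad, which fell, and Epb41l4aos and Tug1, which did not pass. The higher one was Miat, outside the set with a mean just under 5 FPKM, at 0.318 to 0.556 FPKM in health and 6.44 to 12.9 FPKM in periodontitis (log2 change 2.92, adjusted p = 0.000752). Tug1, an RNA with roles in gene silencing, stood at 13.5, 11.9, 13.1 and 12.9 FPKM in health and at 7.92, 14.5 and 14.3 FPKM in periodontitis (log2 change -0.11, 95% interval -0.65 to 0.44, adjusted p = 0.799). Its health libraries were nearly equal and periodontitis 2 lay below them. Of 8 listed imprinted long noncoding RNAs, 1 was tested and none was a member. The tested one, Peg13 on chromosome 15, had a mean of 15.9 FPKM and was outside the set by annotation and not by level. It did not pass (log2 change 0.015, adjusted p = 0.966).

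Several other members of known function did not pass. 1810026B05Rik, which RefSeq names Chaserr, is known to restrain the neighbouring chromatin remodeller gene Chd2; it stood at 10.8, 17.1, 15.7 and 11.5 FPKM in health and at 21.3, 19.8 and 9.92 FPKM in periodontitis (log2 change 0.24, adjusted p = 0.625), and Chd2 changed by 0.02 (adjusted p = 0.976). 1700020I14Rik, which RefSeq names Oip5os1 and which is known as Cyrano, a conserved RNA that directs the decay of miR-7, stood at 16.7, 17.1, 15.8 and 20.1 FPKM in health and at 9.38, 16.9 and 12.0 FPKM in periodontitis (log2 change -0.45, 95% interval -0.98 to 0.07, adjusted p = 0.221), and it passed after rescaling to the same FPKM total (log2 change -0.89, adjusted p = 0.038). AI506816, Snhg12 and BE692007 had the smallest changes among members with an SE under 0.3, at 0.03 (95% interval -0.41 to 0.47), 0.01 (-0.63 to 0.65) and 0.09 (-0.59 to 0.77). A change of up to these bounds could have gone unseen.

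Some members split within a group. Gm42031, a lincRNA gene on chromosome 8, stood at 0.032, 0.0945, 31.4 and 24.4 FPKM in health and at 0, 0.0316 and 0 FPKM in periodontitis. It was present in health 3 and 4 and nearly missing in the other 5 libraries, and the change did not pass (log2 change -2.45, SE 1.28, adjusted p = 0.237). Of its words 59.0% occur in other transcripts, above all those of Gm43305, itself a member with means of 10.8 FPKM in health and 9.69 FPKM in periodontitis. Gm44877, antisense to Tmem86b, stood at 5.72, 0, 0.92 and 0.497 FPKM in health and at 0, 2.39 and 31.7 FPKM in periodontitis, so its group mean rests on periodontitis 4 (log2 change 1.20, SE 1.12, adjusted p = 0.508). Gm31597 rested on periodontitis 2 in the same way, with 29.9 FPKM there and 3.81 and 6.30 FPKM in periodontitis 3 and 4, beside 1.40 to 8.07 FPKM in health.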

How the data were processed

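RNA-seq of sorted spleen cells was available for 4 health and 3 periodontitis libraries, whose groups and numbers follow the library names given as descriptions. The authors deposited 1 table of FPKM values, with the gene length used in them and each gene's position and biotype. The submitters' processing notes name mm10, DESeq2, HISAT2 (2.0.5) and featureCounts (1.5.0-p3) without roles; strand setting and annotation release are, in the sources used here, not given. FPKM times gene length came out whole within 0.001 read for 100% of values, so reads were recovered; 1 read in a gene of 1000 bases was worth 0.0594 to 0.0705 FPKM. Floors of 3 reads cover counting error only.

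Genes whose mean reached 1 FPKM were tested with limma 3.58.1 in R 4.3.3 on log2(FPKM + 1), with a trend in the variance, Benjamini-Hochberg adjustment over 12999 genes and a two-sided threshold of 0.05. Fold changes on this scale understate those of low genes. SE and 95% intervals are limma's. The unit is FPKM, so count models were not the main test, and voom on the recovered reads was an alternative. On simulated data of 12860 genes for periodontitis against health, the fit recovered 94 of 94 genes changed 4-fold and 41 of 95 changed 2-fold and called 9 unchanged genes. Every simulated gene had the same spread between libraries, a dispersion of 0.0458 taken from the health libraries alone. Library-wide shifts other than depth were not simulated, so these figures hold for that simpler setting and not for the real libraries. Neighbours are the protein-coding gene with the largest overlap or else the smallest gap. Positions were checked against GENCODE M21, in which 110 of 112 matched members had the same start and end.

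The members, gene lists and tests were chosen with earlier results of these data known. Named by rule were the 5 most abundant members, the 10 largest rises and falls past the threshold, members of the role lists, the smallest changes with an SE under 0.3 and those at the 5 FPKM limit, 46 in all; another 12 were chosen after their values were seen. Alternatives varied the pseudocount, filter, scaling, test, weights and libraries. Some neighbouring genes are not reported here.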

Additional observations from a re-analysis of the deposited data

Results flagged for a closer look

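Within the 4 health libraries 61 results were examined for a library far from the other 3, and 6 stood out; chance gives about 1 in 20. Gm26917 had 44.3 FPKM in health 1, below the others, and its share of that library's reads was 0.0137%, the same signal on another scale. Gm10076 had 307 FPKM in health 4, above the others. Snhg20 had 13.9 FPKM in health 3, Gm20069 had 4.25 FPKM in health 2 and Gm44877 had 5.72 FPKM in health 1, each above the other health libraries. Groups of 3 libraries, as in periodontitis, were not examined in this way.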

How the results depend on the processing

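The members counted as higher, 16, were 8 without a filter on low values, 9 with library weights and 8 with a replicate block; those counted as lower, 12, were 21 after rescaling to the same FPKM total. Leaving out 1 library gave 9 to 16 higher and 8 to 13 lower members. Over all tested genes, 732 higher and 1321 lower became 417 and 2723 after rescaling, 321 and 657 with the replicate block, and 427 to 881 and 864 to 1370 with 1 library left out. The numbers of the library names do not pair the libraries: deviations of equal numbers correlated at -0.047, -0.016 and 0.037, and 0 of 3 periodontitis libraries correlated best with their own number. The sample titles number periodontitis 2, 3 and 4 as 1, 2 and 3; by these the correlations were -0.046, 0.063 and -0.097, with 1 of 3 best, and a replicate block by title number, added after seeing the data, gave 9 higher and 8 lower members and 297 higher and 669 lower genes. The share of higher among the members' calls was 57.1%, and it was 44.4% without a filter and with the block, 45.0% without periodontitis 2, 46.4% with features under 200 bases left out and 34.4% after rescaling. The median change of all tested genes was -0.06, against -0.21 with short features left out, -0.44 after rescaling and 0.06 after quantile normalization. An alternative chosen after seeing the data, leaving out Gm26917 with the short features, gave 13 higher and 15 lower members. Periodontitis 2 and 4 set many single values, sex differs with group, and strand use is unknown. The cause of these differences between settings was not tested.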
